A study of Arabidopsis thaliana with 24 samples.

Results

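The subject here is the csn4-1 by light interaction, the amount by which the light response of csn4-1 seedlings of Arabidopsis thaliana differed from that of wild type (WT) seedlings, in each transcript measured. It was computed as the csn4-1 light minus dark difference less the WT light minus dark difference. It rests on 12 of the 24 arrays of a series on COP9 signalosome mutants, namely every array of the 4 groups csn4-1 light, csn4-1 dark, WT light and WT dark, 3 arrays each. Whole seedlings 7 days old were profiled on ATH1 arrays, and the submitters describe the 3 arrays of each group as independent biological replicates. The other 12 arrays were of light- and dark-grown csn3-1 seedlings and of a line labelled csn5 (csn5a-2 csn5b). They serve here to show the light response of the same transcripts. Their signals do not enter the interaction value. They do enter the choice of transcripts tested and the spread used for its errors and calls. The lines are called csn4, csn3 and csn5-labelled below. In the arrays labelled csn5 the signal of CSN5B (AT1G71230) was 1790, 1897 and 1573 in darkness and 895, 869 and 651 in light, above every WT array (110 to 177). That goes against what the label csn5b says of this gene, so each value of these arrays stands for the labelled line, whose genotype was not checked further.

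CSN4 is a subunit of the COP9 signalosome, which regulates cullin-RING ubiquitin ligases by cleaving NEDD8 from their cullins. The complex was found through Arabidopsis mutants that open their cotyledons and keep a short hypocotyl in darkness, as if grown in light. In WT seedlings darkness brings a long hypocotyl, closed cotyledons and plastids without chlorophyll, and light turns on genes of photosynthesis and chlorophyll synthesis while genes of reserve use and elongation are turned down. An interaction below 0 means that a transcript rose less in light, or fell more, in csn4 than in WT, and an interaction above 0 the reverse.

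The groups differed in genotype and light. Mutant seedlings carried csn4-1 in both conditions. WT seedlings of the dark group were labelled as Col wild type, and those of the light group as CSN4-1 in Col wild type, so the name of the WT differed between the conditions. No further allele, transgene or agent was given, nor were light intensity, day length or growth medium. A mutant of 1 allele was compared with WT, so an effect of csn4-1 and one of any other difference between the lines cannot be told apart. The csn4 and WT light arrays lie in a range of sample numbers apart from that of all other arrays. A light response of WT or csn4 alone and the range therefore cannot be told apart, but within each condition csn4 and WT lie in 1 range, so a shift common to a range cancels in the interaction. CSN4 was not analysed here, because no probe set named it alone, so the mutation itself was not checked in these values.

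Array quality differed with genotype. The 3' to 5' signal ratio of the actin control probe sets, which rises when labelled RNA is short, ran from 2.44 to 3.12 in WT light and from 2.26 to 21.3 in WT dark (median 4.79), against 13.7 to 16.1 in csn4 dark and 7.34 to 48.9 in csn4 light. The part of this difference in the results was not tested as a cause. With the log2 of that ratio as a covariate 3439 probe sets were called in place of 3413, and 88.9% of the calls were kept. Every csn4 array was at 7.34 or more and every WT light array at 3.12 or less. Ratio and genotype therefore cannot be told apart by that fit. Without WT dark replicate 2 and csn4 light replicate 2, the arrays with a ratio over 20, 3503 were called and 82.1% were kept. Within groups, arrays correlated with Pearson's r from 0.884 to 0.988, and the median SD within a group was largest in csn4 light (0.35 on the log2 scale) and smallest in WT light (0.14). From 60.3% to 76.8% of probe sets had a signal of at least 100 over the 12 arrays, and 0 pairs of arrays were identical.

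The interaction was large and ran in both directions. Values are log2 of the authors' MAS5 signal plus 50, errors of differences are standard errors of a limma fit over the 24 arrays, and a probe set was called when its Benjamini-Hochberg adjusted p was under 0.05 and its difference at least 1 in size. Of 18751 probe sets tested, 1647 were called higher (8.78%) and 1766 lower (9.42%), against a median of 0.004 over all. At an unadjusted p under 0.05 there were 6245. Of the 3413 called probe sets, 1667 named exactly 1 gene, and only genes with such a probe set are named below.

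Fewer transcripts were called for light in csn4 than in WT. The fit takes 1 spread per probe set over the 8 groups, so both light responses have the same standard error. The median SD within a group was 0.35 in csn4 light and 0.14 in WT light, a difference that the shared error does not follow. In WT, 1777 probe sets were higher in light (9.48%) and 1832 lower (9.77%). In csn4, 399 were higher (2.13%) and 255 lower (1.36%). The csn4 total of 654 was 1106 without csn4 light replicate 2, while the WT total of 3609 stayed between 3271 and 3740 when single arrays were left out. WT and csn4 light responses share no array, so their overlap can be given. Of the probe sets higher in WT light, 73 were also higher in csn4 light, 4.11% of the WT list and 18.3% of the csn4 list. Of those lower in WT light, 82 were also lower in csn4, 4.48% of the WT list and 32.2% of the csn4 list. A further 42 were called lower in WT but higher in csn4, 2.29% of the WT list against 2.13% higher in csn4 over all probe sets. The reverse held for 9, 0.506% of the WT list against 1.36% lower in csn4 over all probe sets. No excess is read from these 2 counts.

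**Figure D1:**
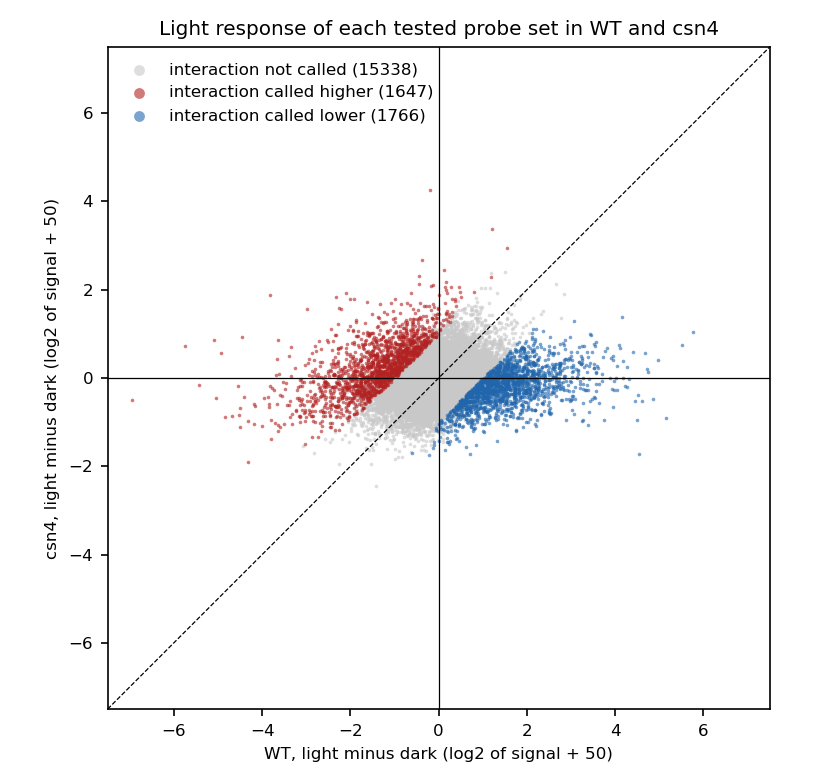
Light minus dark difference of each of the 18751 tested probe sets in WT (horizontal axis) and csn4 (vertical axis), both as log2 of signal plus 50, coloured by the interaction call, with the dashed line marking equal responses. Called probe sets stretch along the WT axis, with 1766 called lower on the right and 1647 called higher on the left, while csn4 differences stay near 0 for most of them.

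Most called interactions came with a called WT light response and an uncalled csn4 one, as the scatter of the 2 light responses shows. Of the 1766 probe sets called lower, 1319 (74.7%) were higher in light in WT and not called in csn4, 9 were higher in WT and lower in csn4, and 60 were lower in csn4 alone. Of the 1647 called higher, 1059 (64.3%) were lower in light in WT and not called in csn4, 42 were lower in WT and higher in csn4, and 125 were higher in csn4 alone. For 371 of the lower and 396 of the higher, neither light response was called by itself. The interaction shares its arrays with both responses, so these counts describe its make-up and are no separate evidence for it.

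Seen by condition, csn4 differed from WT in both. In darkness 3266 probe sets were higher in csn4 (17.4%) and 2093 lower (11.2%), and in light 2716 were higher (14.5%) and 1804 lower (9.62%). Over all probe sets the median difference was 0.24 in darkness and 0.21 in light. After quantile normalization these medians were 0.05 and 0.02, and the splits turned to 2318 higher and 2621 lower in darkness and 1872 and 2140 in light. Of the 1766 probe sets called lower in the interaction, 722 (40.9%) were higher in csn4 in darkness and not called in light, 471 (26.7%) were lower in light and not called in darkness, and 143 (8.1%) were higher in darkness and lower in light. Of the 1647 called higher, 657 (39.9%) were lower in darkness alone, 459 (27.9%) were higher in light alone, and 74 (4.49%) were lower in darkness and higher in light.

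The levels show the same pattern. Over the 1766 probe sets called lower, the median level was 8.32 in WT dark, 9.97 in WT light, 9.43 in csn4 dark and 9.24 in csn4 light (log2 of signal plus 50). Both csn4 medians thus lay between those of dark- and light-grown WT. Over the 1647 called higher, it was 9.47 in WT dark, 7.92 in WT light, 8.51 in csn4 dark and 8.73 in csn4 light, again with both csn4 medians between the WT ones. These levels are from the arrays that chose the probe sets, so they are a description.

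**Figure D2:**
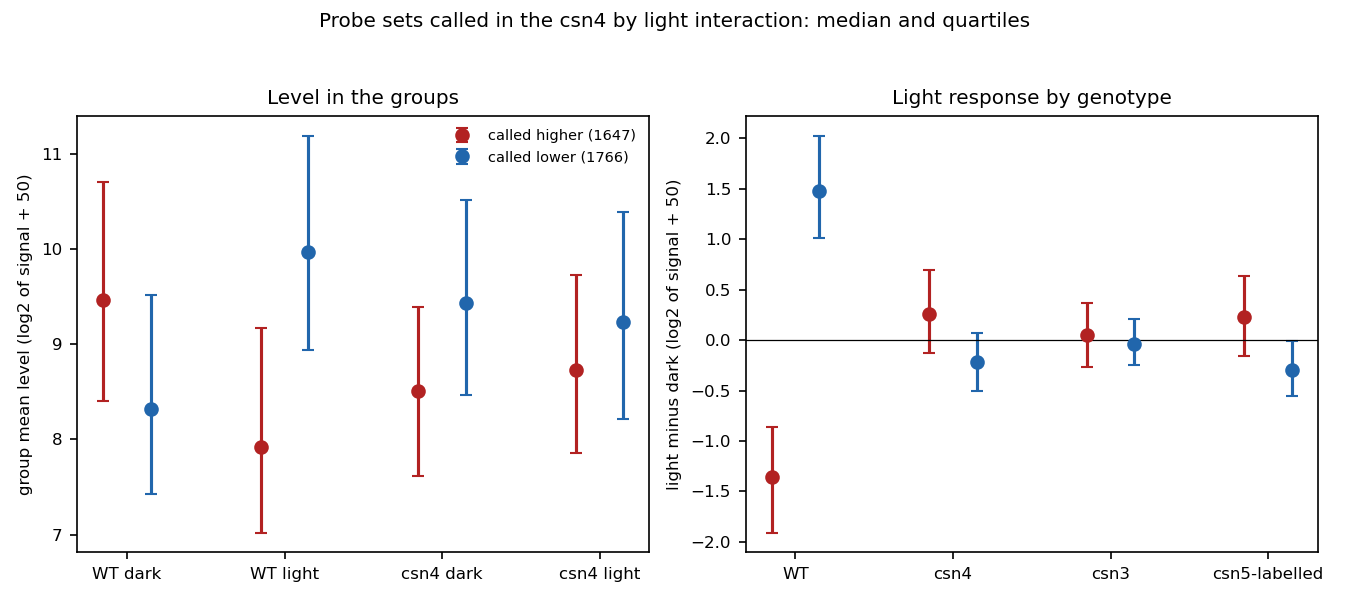
Left, group mean level (log2 of signal plus 50) of the probe sets called higher or lower in the interaction, in the 4 groups; right, their light minus dark difference (log2 of signal plus 50) in 4 genotypes, where points are medians and bars quartiles over probe sets. WT medians are -1.35 and 1.48, and those of csn4, csn3 and csn5-labelled arrays lie between -0.29 and 0.26.

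In the csn3 and csn5-labelled arrays the light response of the same transcripts was also small. These arrays do not enter the interaction value, but they share the filter and the spread behind its calls. Over the probe sets called lower, the median light minus dark difference was 1.48 in WT, -0.21 in csn4, -0.04 in csn3 and -0.29 in csn5-labelled seedlings. Over those called higher it was -1.35 in WT, 0.26 in csn4, 0.05 in csn3 and 0.23 in csn5-labelled seedlings. In csn3, light raised 6 and lowered 4 of the 1766 lower probe sets, and in csn5-labelled seedlings it raised 10 and lowered 66. Of the 1647 higher ones, light raised 42 and lowered 19 in csn3, and raised 182 and lowered 42 in csn5-labelled seedlings. Over all probe sets tested, 0.88% were called either way in csn3 and 3.82% in csn5-labelled seedlings.

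Tested directly, the csn4 light response differed from that of csn3 in 1 probe set (0.00533%), with 1149 at an unadjusted p under 0.05, and from that of the csn5-labelled line in 7 (0.0373%), with 1679 at an unadjusted p under 0.05. These counts do not show that the lines respond alike. The 95% interval of a difference reached 0.73 to either side in the median probe set, and it lay inside 1 in size for 48.2% of probe sets against csn3 and 44% against the csn5-labelled line. The csn3 and csn5-labelled light arrays lie in the same range as the dark arrays, so the range does not cancel in these comparisons. Without csn4 light replicate 1, the count against the csn5-labelled line was 40. It was 3 without csn4 dark replicate 3 or any 1 of the WT light arrays, and 0 without csn4 dark replicate 1. Against csn3 the count was 0 without csn4 dark replicate 1 or 3 and 2 without csn4 light replicate 2. CSN5B, the gene whose level goes against the label of that line, was among the 7, and so were AT5G42200 and AT4G05150, which were singled out after their values were seen. The probe set that differed from csn3 is unnamed here.

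The 12 genes with the lowest interaction were all called higher in light in WT. Of these, AT3G16670, AT2G33850 and AT1G66100 were low in the other 3 groups. AT3G16670 gave signals of 69.3, 86.6 and 81.3 in WT dark, 5391, 3990 and 4208 in WT light, 156, 44.9 and 186 in csn4 dark and 13.8, 127 and 11.7 in csn4 light. WT light stood above every other array, and the csn4 light and dark arrays overlapped. Its interaction of -6.05 ± 0.55 was the lowest among named genes (limma adjusted p = 4.08e-09). AT2G33850 had signals of 4.6, 70.8 and 27.8 in WT dark, 1823, 2089 and 2403 in WT light, 6, 71.7 and 16.9 in csn4 dark and 54.3, 9.8 and 47.9 in csn4 light. It too was high in WT light alone, and its csn4 arrays overlapped with those of WT dark. The interaction was -4.60 ± 0.48 (limma adjusted p = 4.06e-08). Among the 12 arrays only those of WT light reached the signal limit of 100 for AT2G33850. The group where it is high thus also brought it into the test, so its call is a description. AT1G66100 read 1.9, 126 and 11.2 in WT dark, 1012, 1319 and 1386 in WT light, 52.9, 178 and 188 in csn4 dark and 53.9, 212 and 2.7 in csn4 light. Both dark groups overlapped, as did light and dark in csn4, and only the WT light arrays were above 1000 (interaction -4.61 ± 0.66). Several of these signals lie under 100, where a log2 value of signal plus 50 understates the ratio.

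Other transcripts of this kind were already raised in dark csn4 seedlings. AT1G23130 gave 58, 57.4 and 81.1 in WT dark, 6050, 6944 and 5721 in WT light, 1618, 2189 and 1794 in csn4 dark and 3656, 3418 and 4745 in csn4 light. All 4 groups were apart, with csn4 above WT in darkness and below it in light, and the transcript was called higher in light in both genotypes, by 5.77 in WT and 1.05 in csn4. AT3G48420 gave 117, 129 and 73 in WT dark, 2782, 2857 and 3081 in WT light, 809, 623 and 727 in csn4 dark and 440, 790 and 670 in csn4 light. The csn4 arrays overlapped between light and dark and lay between the WT groups (interaction -4.46 ± 0.41, limma adjusted p = 4.94e-09). Of the remaining genes among the 12 lowest, AT4G21870 had an interaction of -4.44 ± 0.28, AT2G29290 of -4.22 ± 0.30, AT1G52510 of -4.00 ± 0.37 and AT3G28220 of -3.95 ± 0.47. AT4G21870 was higher in WT light by 3.38 and lower in csn4 light by -1.07, both called. RCA (AT2G39730), CaS (AT5G23060) and SBPASE (AT3G55800) complete the 12.

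Most of the listed nuclear genes of the photosynthetic apparatus were called lower. Like the other lists below, this list was chosen with earlier results of these data known and stands for its members alone. Of 20 tested genes of the photosystems, antenna and electron transport, 17 were called lower (9.42% over all probe sets) and the other 3 were not called, with a median interaction of -1.72. In WT 14 of the 20 were higher in light, and the median light minus dark difference was 1.70 in WT and -0.12 in csn4. CaS, which encodes a calcium-binding protein of the thylakoid, gave signals of 262, 427 and 361 in WT dark, 6542, 6762 and 7888 in WT light, 3217, 2684 and 3114 in csn4 dark and 2678, 3831 and 2600 in csn4 light. The csn4 arrays of both conditions overlapped, above all WT dark and below all WT light arrays. Its interaction was -4.17 ± 0.26 (limma adjusted p = 4.23e-12), made of a WT difference of 4.17 and a csn4 difference of -0.0034. NdhL and NdhN encode subunits of the chloroplast NADH dehydrogenase-like complex, and TROL a thylakoid protein that anchors ferredoxin-NADP reductase. Their interactions were -3.55 ± 0.29, -3.44 ± 0.26 and -3.44 ± 0.29. All 3 were higher in csn4 in darkness, by 1.96, 1.63 and 1.91, and lower in light.

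Most of the listed carbon fixation genes were called in the same direction. Of 8 tested Calvin cycle and photorespiration genes, 6 were called lower (9.42% over all probe sets) and 2 were not called (median -2.40). RCA, which encodes Rubisco activase, had signals of 2869, 1017 and 2181 in WT dark, 23856, 25716 and 27231 in WT light, 16110, 12332 and 16115 in csn4 dark and 6903, 3859 and 16871 in csn4 light. WT light was above all other arrays and WT dark below them, while the csn4 light arrays spread over more than the csn4 dark ones and overlapped with them. Its interaction was -4.68 ± 0.51 (limma adjusted p = 7.58e-08). SBPASE encodes the Calvin cycle enzyme sedoheptulose-bisphosphatase and gave 539, 604 and 830 in WT dark, 10818, 10433 and 11517 in WT light, 5264, 2850 and 2869 in csn4 dark and 2644, 3279 and 4328 in csn4 light. Here too the csn4 groups overlapped between the WT groups (interaction -4.04 ± 0.31, limma adjusted p = 3.09e-10). TRXF2, a thioredoxin that activates Calvin cycle enzymes, had -2.77 ± 0.31, and HPR, the hydroxypyruvate reductase of photorespiration, -2.65 ± 0.30. Those 2 differed less between the genotypes in darkness (0.66 and 0.69) than in light (-2.12 and -1.96).

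Most of the listed chlorophyll synthesis genes followed the same direction. Of 11 tested chlorophyll and tetrapyrrole synthesis genes, 8 were called lower (9.42% over all probe sets) and 3 were not called (median -1.52). HEME2 (AT2G40490), one of a pair of uroporphyrinogen decarboxylase genes, gave 498, 390 and 375 in WT dark, 2403, 2203 and 2529 in WT light, 932, 813 and 680 in csn4 dark and 807, 779 and 829 in csn4 light. The WT dark group was lowest and the WT light group highest, and csn4 light and dark arrays overlapped between them. The interaction was -2.37 ± 0.27 (limma adjusted p = 1.36e-07), and that of the paralog HEME1 was -2.12 ± 0.28. HEMB1, which makes porphobilinogen, had -1.62 ± 0.22, and GSA1, which makes aminolevulinic acid, -1.91 ± 0.27. Of 21 chloroplast assembly factors and RNA editing proteins, 8 were called lower (9.42% over all probe sets) and 13 were not called (median -1.0). HCF101 (AT3G24430), needed for photosystem I assembly, read 256, 274 and 385 in WT dark, 1619, 1624 and 1564 in WT light, 1481, 1396 and 1316 in csn4 dark and 1412, 1602 and 1404 in csn4 light. Dark csn4 arrays already stood near the WT light level, and the light arrays of both genotypes overlapped (interaction -2.16 ± 0.22, limma adjusted p = 3.03e-08). FTSZ2-1 and FTSZ2-2, which act in chloroplast division, had -1.49 ± 0.23 and -1.50 ± 0.24, and LPA2, a photosystem II assembly factor, -1.69 ± 0.26.

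**Figure D3:**
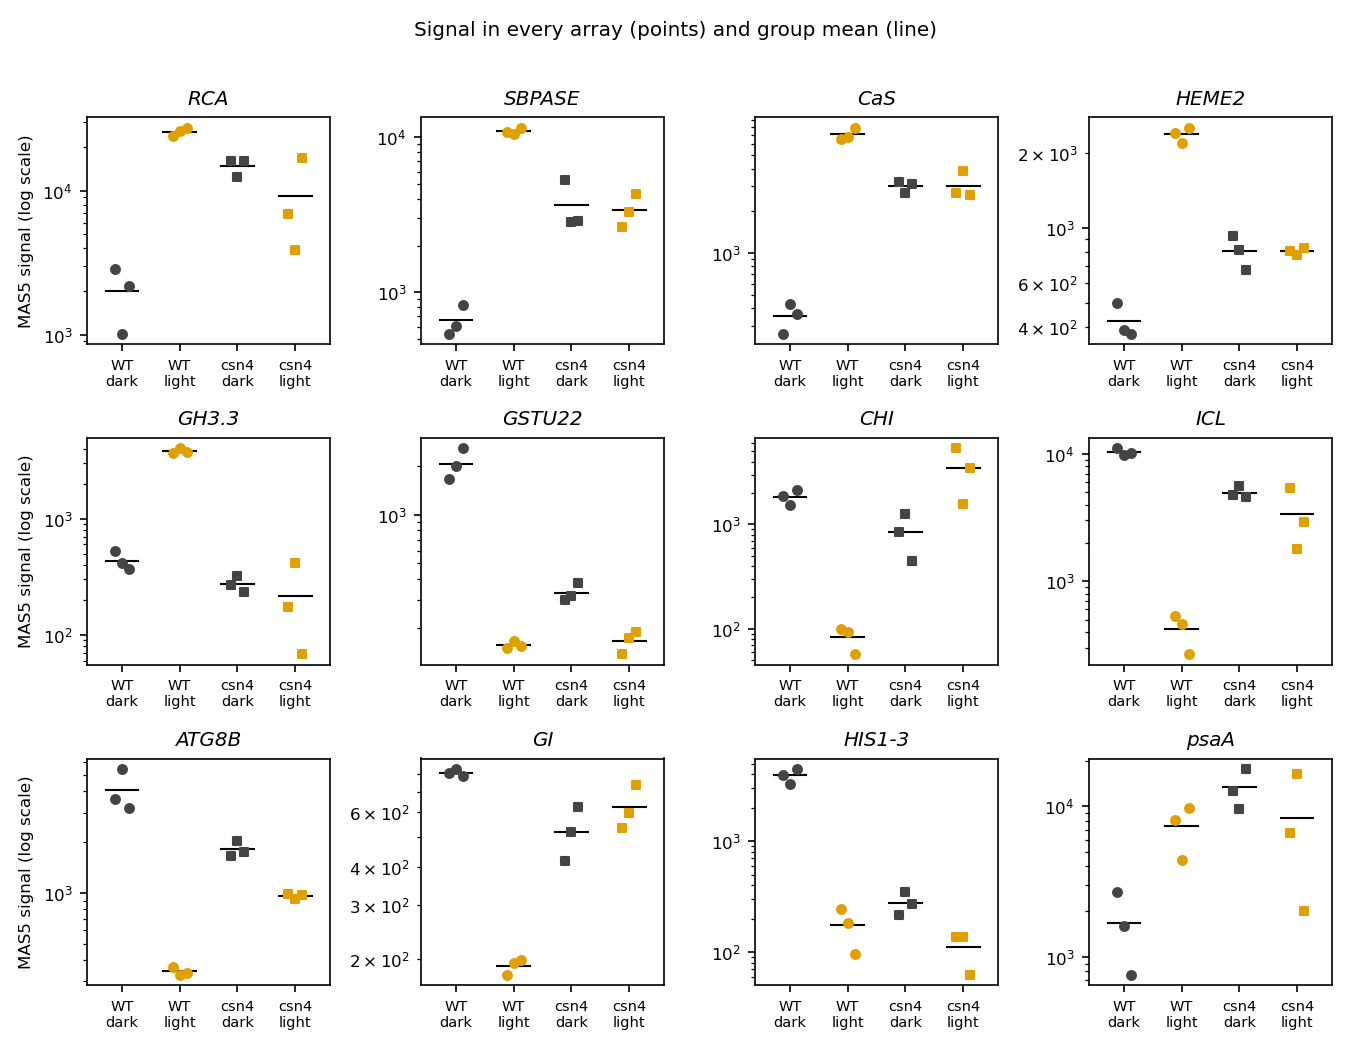
MAS5 signal (log axis) of 12 genes in each array, as points, with the mean of the 3 arrays of a group as a line. In RCA, SBPASE, CaS and HEME2 the csn4 arrays sit between WT dark and WT light, in GH3.3 the WT light arrays are at 3677 and above and the others between 68.0 and 522, and in CHI the csn4 light arrays, at 1558 and above, stand over the WT light arrays, at 99.2 and below.

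Chloroplast-encoded genes gave higher signals in csn4 in both conditions. The actin ratio differed too, at 13.7 to 16.1 in csn4 dark against 2.26 to 21.3 in WT dark. In light it was 7.34 to 48.9 in csn4 against 2.44 to 3.12 in WT. Its part in the higher chloroplast signals was not tested. Of 45 tested chloroplast-encoded photosynthesis genes, 9 were called lower in the interaction (9.42% over all probe sets) and 36 were not called (median -0.63). Without csn4 light replicate 2 the number called lower was 15, and without that array and WT dark replicate 2, the pair of high actin ratio, it was 24. In darkness 42 of the 45 were higher in csn4 than in WT and in light 31, against 17.4% and 14.5% over all probe sets, with median differences of 2.46 and 1.30. For the 20 nuclear genes, 9 were higher and 1 lower in darkness, and 12 were lower in light, with medians of 0.56 and -1.14. psaA (ArthCp022), which encodes a core protein of photosystem I, gave 2698, 1590 and 760 in WT dark, 8070, 4398 and 9676 in WT light, 12725, 9558 and 17748 in csn4 dark and 6659, 16434 and 2028 in csn4 light. WT dark was below every WT light and csn4 dark array. The csn4 light arrays ran from the WT dark level to that of csn4 dark, highest in the array with the actin ratio of 48.9. Its interaction was -3.28 ± 0.74 (limma adjusted p = 0.00142). psbH of photosystem II had -1.67 ± 0.42, petB of the cytochrome b6f complex -1.21 ± 0.31 and ndhA of the NADH dehydrogenase-like complex -1.73 ± 0.45.

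Of 24 tested chloroplast genes for ribosomal proteins, RNA polymerase and other functions, 4 were called lower (9.42% over all probe sets). The other 20 were not called. Of the 24, 22 were higher in csn4 in darkness and 17 in light, against 17.4% and 14.5% over all probe sets. Without WT dark replicate 2 and csn4 light replicate 2 the number called lower was 13. The ribosomal protein gene rpl36 (ArthCp057) gave 1722, 1554 and 1537 in WT dark, 9591, 7902 and 7753 in WT light, 5002, 9336 and 15523 in csn4 dark and 8950, 12872 and 10749 in csn4 light. Its WT dark arrays were low, and the other 3 groups overlapped (interaction -2.10 ± 0.43, limma adjusted p = 0.000562). rps18 had -2.60 ± 0.55 and rpl33 -2.09 ± 0.48. For rps2 the interaction of -1.77 ± 0.58 was not called without WT dark replicate 1 (-1.46, limma adjusted p = 0.0809), WT light replicate 3 (-1.67, limma adjusted p = 0.0605), csn4 dark replicate 3 (-1.52, limma adjusted p = 0.075) or csn4 light replicate 3 (-1.09, limma adjusted p = 0.0924). rps2 was also not called in the fit of the 12 csn4 and WT arrays alone (-1.77, limma adjusted p = 0.0558) and with robust eBayes (-1.77, limma adjusted p = 0.071).

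The 12 genes with the highest interaction were all called lower in light in WT. AT5G39520 gave signals of 3726, 3889 and 3014 in WT dark, 36.6, 4.1 and 11.9 in WT light, 263, 536 and 392 in csn4 dark and 782, 538 and 690 in csn4 light. All 4 groups were apart, with csn4 below WT in darkness and above it in light. Its interaction of 6.47 ± 0.32 was the highest among named genes (limma adjusted p = 6.24e-14). AT4G37220 had 4011, 3126 and 3746 in WT dark, 86.6, 71.7 and 51.4 in WT light, 171, 87.6 and 50.5 in csn4 dark and 154, 304 and 87.1 in csn4 light. WT dark stood far above the other groups, and the csn4 arrays were low in both conditions and overlapped (interaction 5.51 ± 0.64). AT4G07820 read 2755, 2649 and 2788 in WT dark, 53.2, 45 and 10.8 in WT light, 129, 47.5 and 218 in csn4 dark and 83.5, 124 and 29.2 in csn4 light. It was likewise high in WT dark alone, and light arrays of the genotypes overlapped (interaction 4.60 ± 0.52).

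AT4G33150, which encodes a bifunctional enzyme of lysine breakdown per the synonyms of its locus, gave 5880, 6010 and 6446 in WT dark, 543, 457 and 340 in WT light, 750, 770 and 1118 in csn4 dark and 1639, 1741 and 1467 in csn4 light. In csn4 the light arrays were above the dark ones, and the 4 groups were apart (interaction 4.51 ± 0.42, limma adjusted p = 6.7e-09). AT3G18250 had 581, 1031 and 1114 in WT dark, 75, 80.7 and 47 in WT light, 552, 596 and 437 in csn4 dark and 3454, 891 and 1426 in csn4 light. It was lower in light in WT (-2.99) and higher in light in csn4 (1.56), both called, while the dark arrays overlapped. AT3G22240 also ran in opposite directions, by -2.0 in WT and 1.79 in csn4. The other members of the 12 highest were AT2G41190 (4.11 ± 0.31), AT2G16005 (3.97 ± 0.58), AT4G11190 (3.84 ± 0.52) and AT1G30760 (3.70 ± 0.58), with ICL (AT3G21720) and CHI (AT2G43570).

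Many of the listed genes of amino acid breakdown and reserve use were called higher. Of 17 tested, 9 were called higher (8.78% over all probe sets) and 8 were not called, with a median interaction of 1.16. In WT 10 of them were lower in light, and the median light minus dark difference was -1.43 in WT and -0.01 in csn4. In darkness 10 of the 17 were lower in csn4, against 11.2% over all probe sets, and 1 was higher. ICL, the isocitrate lyase that lets seedlings turn stored oil into sugar, gave 11050, 9799 and 10205 in WT dark, 538, 459 and 267 in WT light, 4737, 5581 and 4578 in csn4 dark and 5356, 1789 and 2938 in csn4 light. The WT dark group was highest and the WT light group lowest, and csn4 light and dark arrays overlapped between them. Its interaction was 3.82 ± 0.38 (limma adjusted p = 1.96e-08). MCCA and MCCB encode the subunits of methylcrotonyl-CoA carboxylase in leucine breakdown and had 2.17 ± 0.36 and 2.2 ± 0.33. DELTA-OAT, an ornithine aminotransferase, had 2.26 ± 0.27.

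The listed autophagy genes that were called went in that direction too. Of 10 tested, 5 were called higher (8.78% over all probe sets) and 5 were not called (median 0.99). In WT, 6 were lower in light. ATG8B (AT4G04620), one of the ubiquitin-like ATG8 proteins that are joined to autophagosome membranes, had signals of 3632, 5453 and 3182 in WT dark, 366, 328 and 334 in WT light, 1665, 2048 and 1742 in csn4 dark and 984, 922 and 976 in csn4 light. The 4 groups were apart, and the light minus dark difference was -0.88 in csn4 and -3.36 in WT. The interaction was 2.48 ± 0.27 (limma adjusted p = 7.68e-08). APG8H, ATG8H and APG8A of the same family had 1.27 ± 0.21, 1.46 ± 0.27 and 1.35 ± 0.28, with overlapping light and dark arrays in csn4 for each of them. Members of this family are similar in sequence, and how far their probe sets share signal was not tested.

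Of 15 tested genes of the abscisic acid, cold and drought response, 6 were called higher, 1 lower and 8 were not called. The shares over all probe sets were 8.78% higher and 9.42% lower. LTI30 and COR47 encode dehydrins and had 1.79 ± 0.31 and 1.53 ± 0.35, and LEA18, a late embryogenesis abundant protein gene, 2.27 ± 0.48. COR47 differed little by light in WT (-0.16) and more in csn4 (1.37). HVA22C (AT1G69700), the member called lower, gave 324, 309 and 424 in WT dark, 1197, 1108 and 1312 in WT light, 748, 759 and 698 in csn4 dark and 943, 1088 and 828 in csn4 light. Its 4 groups were apart, with csn4 above WT in darkness and below it in light (interaction -1.30 ± 0.22, limma adjusted p = 6.2e-05). The linker histone gene HIS1-3 (AT2G18050) read 3980, 3271 and 4499 in WT dark, 247, 184 and 95.8 in WT light, 214, 350 and 274 in csn4 dark and 136, 136 and 62.4 in csn4 light. WT dark was high alone, the light arrays overlapped, and the interaction was 3.14 ± 0.37 (limma adjusted p = 2.6e-07). Of 23 tested genes of DNA replication, repair and histones it was the one called member. ASF1B, HTB4 and ATLIG4 had -0.89 ± 0.25, 0.92 ± 0.30 and 0.69 ± 0.40, none called.

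Of 25 tested defence genes, 7 were called higher, 2 lower and 16 were not called (median 0.19). Over all probe sets 8.78% were called higher and 9.42% lower, so nothing is read from the 2 called lower. Without csn4 light replicate 2, 4 were called lower. CHI, a chitinase gene, gave 1864, 1518 and 2135 in WT dark, 99.2, 93.2 and 57.3 in WT light, 852, 1262 and 451 in csn4 dark and 5351, 1558 and 3454 in csn4 light. WT light stood far below every other array, and csn4 light above every csn4 dark array. The light response thus turned from -3.83 in WT to 1.89 in csn4, both called. Its interaction was 5.72 ± 0.46 (limma adjusted p = 6.57e-10). CHI was called higher in light in csn3 too, by 1.39, and in the csn5-labelled arrays, by 1.87. OSM34, an osmotin-like gene, had 3.08 ± 0.30, SAG101, a lipase-like partner of EDS1 in immunity, 1.81 ± 0.35, and the glucosyltransferase gene UGT76B1 1.95 ± 0.43.

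Glutathione transferases and redox enzymes split by gene. Of 29 tested, 9 were called higher, 7 lower and 13 were not called, against 8.78% higher and 9.42% lower over all probe sets. GSTU22 (AT1G78340), a tau-class glutathione transferase gene, gave 1644, 1977 and 2556 in WT dark, 151, 166 and 154 in WT light, 299, 314 and 380 in csn4 dark and 138, 174 and 189 in csn4 light. It was high in WT dark, and the light arrays of the genotypes overlapped (interaction 2.51 ± 0.28, limma adjusted p = 1.51e-07). GSTU18 of the same class had -3.23 ± 0.37 and changed in opposite directions, by 2.19 in WT and -1.04 in csn4. The 2 chloroplast enzymes named by the rule were called lower, AOR, an oxidoreductase of reactive carbonyls, with -2.42 ± 0.28 and TAPX, the thylakoid ascorbate peroxidase, with -2.58 ± 0.32.

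Among genes of the light and clock pathways, 2 of 9 tested were called higher, 1 lower and 6 were not called. As 8.78% were called higher and 9.42% lower over all probe sets, no direction is read for the list. GI (AT1G22770), a clock protein also active in flowering and light signalling, gave 805, 831 and 786 in WT dark, 178, 194 and 200 in WT light, 417, 518 and 623 in csn4 dark and 532, 597 and 738 in csn4 light. The WT light group was lowest, and csn4 light and dark arrays overlapped between the WT groups. The interaction was 2.08 ± 0.29 (limma adjusted p = 4.17e-06). CIL had -1.37 ± 0.36, and AFR, an F-box protein of phytochrome A signalling, -0.99 ± 0.32, which was not called. SPT, a bHLH factor, had 1.24 ± 0.38, a call lost without WT light replicate 2 (0.97, limma adjusted p = 0.0762), csn4 dark replicate 1 (0.94, limma adjusted p = 0.0719) or csn4 light replicate 1 (0.93, limma adjusted p = 0.0742). The call of SPT was lost too in the fit of the 12 csn4 and WT arrays alone (1.24, limma adjusted p = 0.0574).

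Of 17 tested auxin genes, 2 were called higher (8.78% over all probe sets), 3 lower (9.42% over all probe sets) and 12 were not called, too few to read a direction for the list. GH3.3 (AT2G23170), an enzyme that joins auxin to amino acids, gave 522, 417 and 367 in WT dark, 3677, 4024 and 3764 in WT light, 268, 322 and 232 in csn4 dark and 173, 412 and 68 in csn4 light. Only the WT light arrays were above 1000, and csn4 was below WT in both conditions, with overlapping light and dark arrays. Its interaction was -3.50 ± 0.43 (limma adjusted p = 6.07e-07). IAA29, an auxin response repressor, and WES1, another GH3 enzyme, had -1.76 ± 0.40 and -1.28 ± 0.36. LBD16, a factor of lateral root formation, had 1.47 ± 0.43, a call lost without csn4 dark replicate 3 (1.02, limma adjusted p = 0.0516). The 2 auxin genes called higher became 1 without any 1 of 9 of the 12 arrays, that is all but WT dark replicate 2, WT light replicate 2 and csn4 light replicate 3.

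Flavonoid genes were raised in csn4 in both conditions. Of 6 tested genes of flavonoid and anthocyanin synthesis, 5 were higher in csn4 in darkness and 5 in light. In the interaction 3 were called lower and 3 were not called. The shares over all probe sets were 17.4% higher in darkness, 14.5% higher in light and 9.42% called lower in the interaction. UGT78D2 (AT5G17050), a flavonoid 3-O-glucosyltransferase, gave 67.4, 133 and 71.9 in WT dark, 291, 405 and 332 in WT light, 1634, 1538 and 1569 in csn4 dark and 1564, 1069 and 2501 in csn4 light. Every csn4 array was above every WT array, and the csn4 light and dark arrays overlapped (interaction -1.47 ± 0.31, limma adjusted p = 0.000652). CHIL, a chalcone isomerase-like protein, had -1.52 ± 0.36, and UF3GT, of anthocyanin decoration, 0.80 ± 0.32, which was not called. UGT78D1, a flavonol rhamnosyltransferase, had -1.17 ± 0.39, not called without any 1 of WT dark replicate 2, WT light replicate 2, WT light replicate 3, csn4 dark replicate 3 or csn4 light replicate 1 (values from -1.16 to -0.81, limma adjusted p from 0.0574 to 0.117). UGT78D1 was also not called after quantile normalization, with 100 added before log2, in the fit of the 12 csn4 and WT arrays alone, with the actin ratio as a covariate, without the pair of arrays of high actin ratio and with array weights (values from -1.17 to -0.85, limma adjusted p from 0.0319 to 0.0877).

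In phenylpropanoid synthesis 3 of 11 tested genes were called higher (8.78% over all probe sets) and 8 were not called. ALDH2C4 (AT3G24503), which oxidises coniferaldehyde and sinapaldehyde, gave 4103, 6629 and 5181 in WT dark, 2392, 2370 and 2283 in WT light, 1593, 2039 and 1721 in csn4 dark and 4728, 2474 and 2902 in csn4 light. WT light arrays were below WT dark ones, the csn4 light arrays were above the csn4 dark ones, and the csn4 difference of 0.85 was under the size limit (interaction 1.98 ± 0.26, limma adjusted p = 1.77e-06). CCOAMT, a methyltransferase gene, had 2.95 ± 0.53, and UGT72E2, of monolignol glucosylation, 0.84 ± 0.25, which was not called. CCR2, a cinnamoyl-CoA reductase, had 1.89 ± 0.60, a call lost without WT dark replicate 1 (1.64, limma adjusted p = 0.0674), WT dark replicate 3 (1.68, limma adjusted p = 0.0667), csn4 dark replicate 3 (1.62, limma adjusted p = 0.0631) or csn4 light replicate 1 (1.63, limma adjusted p = 0.0674). Of 3 peroxidase genes, PRX52 (AT5G05340) was called higher. It read 122, 181 and 157 in WT dark, 55.4, 42 and 56.2 in WT light, 345, 326 and 134 in csn4 dark and 1474, 239 and 279 in csn4 light. The first csn4 light array was far above all others, and the dark arrays overlapped. Its call, with an interaction of 1.80 ± 0.57, was lost without csn4 dark replicate 3 (1.45, limma adjusted p = 0.0765) or csn4 light replicate 1 (1.03, limma adjusted p = 0.0818). The call of PRX52 was lost too after quantile normalization (1.76, limma adjusted p = 0.0508) and in the fit of the 12 csn4 and WT arrays alone (1.80, limma adjusted p = 0.0653). Prx37 and PRXR1 had 1.17 ± 0.44 and 0.04 ± 0.26, neither called.

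Few cell wall enzymes were called. Of 23 tested expansins and xyloglucan enzymes, 2 were called higher, 1 lower and 20 were not called, and of 27 other wall enzymes 1 was called higher, 3 lower and 23 were not called. Over all probe sets 8.78% were called higher and 9.42% lower, and nothing is read from these few calls about the lists. The 1 expansin or xyloglucan gene called lower became 4 without WT dark replicate 1 or csn4 light replicate 2, and 2 without WT light replicate 2, csn4 dark replicate 1, csn4 light replicate 1 or csn4 light replicate 3. The 3 other wall genes called lower became 1 without WT dark replicate 2, WT light replicate 2 or csn4 dark replicate 1. XTH32 (AT2G36870), a xyloglucan endotransglucosylase, gave 206, 256 and 260 in WT dark, 491, 401 and 437 in WT light, 895, 491 and 752 in csn4 dark and 346, 424 and 504 in csn4 light. WT dark was below every other array, and the light arrays of the genotypes overlapped (interaction -1.42 ± 0.29, limma adjusted p = 0.000567). XTH18 of the same family had 1.49 ± 0.32 and the expansin-like EXLA1 1.37 ± 0.30, while EXGT-A3, at -0.97 ± 0.21, was not called. ATPMEPCRD (AT2G43050), a pectin methylesterase gene, gave 2998, 2253 and 2298 in WT dark, 160, 127 and 97.5 in WT light, 106, 16.8 and 101 in csn4 dark and 28.8, 22.6 and 31.2 in csn4 light. It was high in WT dark, and csn4 was below WT in both conditions (interaction 3.26 ± 0.56, limma adjusted p = 6.21e-05). COB, which orients cellulose, had -1.50 ± 0.33, and the pectin methylesterase PMEPCRF -0.96 ± 0.26, which was not called. Without the pair of arrays of high actin ratio COB was at -0.97 (limma adjusted p = 0.00734) and lost its call. SKU5, of directional root growth, had -1.03 ± 0.20, lost without WT dark replicate 2 (-0.98, limma adjusted p = 0.00106), WT light replicate 2 (-0.99, limma adjusted p = 0.0016), csn4 dark replicate 1 (-0.91, limma adjusted p = 0.00194) or csn4 light replicate 1 (-0.96, limma adjusted p = 0.00148). SKU5 was also not called without the pair of arrays of high actin ratio (-0.99, limma adjusted p = 0.0012).

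Among sugar and starch genes 3 of 26 tested were called higher, 4 lower and 19 were not called. The shares over all probe sets were 8.78% and 9.42%, so no direction is read for the list. cwINV6 (AT5G11920), a member of the cell wall invertase family, gave 327, 302 and 525 in WT dark, 34.4, 37 and 70.9 in WT light, 182, 236 and 258 in csn4 dark and 211, 329 and 307 in csn4 light. WT light was below every other array, and csn4 light and dark arrays overlapped (interaction 2.40 ± 0.34, limma adjusted p = 4.02e-06). The alpha-amylase gene AMY1 had 1.92 ± 0.40, the sugar transporter SWEET1 -1.26 ± 0.27 and the starch-phosphorylating enzyme PWD (AT5G26570) -1.20 ± 0.27. Without the pair of arrays of high actin ratio PWD (AT5G26570) was at -0.99 (limma adjusted p = 0.0107) and lost its call.

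Beta-glucosidases and lectins of endoplasmic reticulum bodies, 22 tested, had 6 called higher, 3 lower and 13 not called (median 0.83). The shares over all probe sets were 8.78% higher and 9.42% lower. BGLU46 (AT1G61820), a glucosidase of monolignol glucosides, gave 538, 696 and 988 in WT dark, 182, 224 and 179 in WT light, 250, 265 and 220 in csn4 dark and 671, 541 and 312 in csn4 light. In WT the light arrays were below the dark ones, and in csn4 they were above them (interaction 2.52 ± 0.40, limma adjusted p = 2.39e-05). BGLU15 and BGLU25 had 1.27 ± 0.22 and 1.82 ± 0.34, and the jacalin-related lectin JAL34 1.41 ± 0.28.

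Protein folding genes, 17 tested, had 2 called higher, 1 lower and 14 not called. With 8.78% called higher and 9.42% lower over all probe sets, no direction is read for the list. Hsp70-2 (AT5G02490), a heat shock chaperone gene, gave 856, 1078 and 1253 in WT dark, 380, 447 and 427 in WT light, 2088, 1913 and 2244 in csn4 dark and 2257, 2912 and 2685 in csn4 light. Every csn4 array was above every WT array, and WT light below WT dark (interaction 1.55 ± 0.22, limma adjusted p = 3.73e-06). BZIP60, a factor of the unfolded protein response, had 1.63 ± 0.28, and the HSP70 exchange factor genes Fes1B and Fes1C had -2.50 ± 0.47 and -0.84 ± 0.22, of which the second was not called.

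Small-molecule glycosyltransferases, 25 tested, had 4 called higher, 3 lower and 18 not called. No direction is read for the list, as the shares over all probe sets were 8.78% and 9.42%. UGT76E11 (AT3G46670) gave 20, 26.2 and 36 in WT dark, 209, 194 and 213 in WT light, 224, 217 and 168 in csn4 dark and 295, 100 and 286 in csn4 light. WT dark was below every other array, and the other 3 groups overlapped (interaction -1.68 ± 0.34, limma adjusted p = 0.000379). UGT85A2 and UGT73D1 had 1.56 ± 0.31 and 2.32 ± 0.52. UGT88A1, at -1.07 ± 0.25, lost its call without WT light replicate 3 (-0.99, limma adjusted p = 0.00912), csn4 dark replicate 2 (-1.0, limma adjusted p = 0.00692), csn4 light replicate 1 (-0.97, limma adjusted p = 0.00843) or csn4 light replicate 2 (-0.98, limma adjusted p = 0.00575). The call of UGT88A1 was lost too with the actin ratio as a covariate (-0.94, limma adjusted p = 0.00436) and without the pair of arrays of high actin ratio (-0.97, limma adjusted p = 0.00941).

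The 14 tested cytochromes P450 of family 71B had 2 called higher (8.78% over all probe sets) and 2 lower (9.42% over all probe sets). Neither count is read as a direction for the list. CYP71B6 (AT2G24180), which converts indole-3-acetonitrile, gave 1894, 2052 and 2372 in WT dark, 701, 690 and 663 in WT light, 877, 1244 and 942 in csn4 dark and 3937, 1422 and 1639 in csn4 light. WT light was below every other array, and the light response turned from -1.55 in WT to 1.02 in csn4, both called (interaction 2.57 ± 0.33, limma adjusted p = 1.03e-06). CYP71B22 had -3.18 ± 0.47 and CYP71B23 1.65 ± 0.38. CYP71B35, at -1.27 ± 0.46, lost its call without any 1 of WT dark replicate 1, WT dark replicate 2, WT light replicate 1, WT light replicate 2, WT light replicate 3, csn4 dark replicate 1, csn4 dark replicate 2, csn4 dark replicate 3, csn4 light replicate 1 or csn4 light replicate 2 (values from -1.32 to -0.90, limma adjusted p from 0.0525 to 0.161). CYP71B35 was also not called with 100 added before log2, with no filter on low signals, in the fit of the 12 csn4 and WT arrays alone, with robust eBayes, with the actin ratio as a covariate and without the pair of arrays of high actin ratio (values from -1.27 to -0.90, limma adjusted p from 0.0447 to 0.13).

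In glucosinolate metabolism 1 of 6 tested genes was called higher (8.78% over all probe sets) and 1 lower (9.42% over all probe sets). BCAT4 (AT3G19710), which starts the synthesis of methionine-derived glucosinolates, gave 96.9, 219 and 130 in WT dark, 1322, 1774 and 1218 in WT light, 59.4, 317 and 81.3 in csn4 dark and 156, 228 and 170 in csn4 light. WT light was high alone, and the other 3 groups overlapped (interaction -2.51 ± 0.46, limma adjusted p = 0.000159). GTR2, a glucosinolate transporter, had 1.58 ± 0.43. UGT74B1 and AOP1, at 0.72 ± 0.35 and 0.96 ± 0.47, were not called.

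Of 17 tested cell cycle genes, 1 was called higher, 1 lower and 15 were not called, against 8.78% higher and 9.42% lower over all probe sets. SIM (AT5G04470), an inhibitor of cyclin-dependent kinases that promotes endoreduplication, gave 2543, 4248 and 2906 in WT dark, 619, 632 and 623 in WT light, 850, 1584 and 1188 in csn4 dark and 593, 915 and 747 in csn4 light. It was high in WT dark, and csn4 light and dark arrays overlapped (interaction 1.62 ± 0.28, limma adjusted p = 8.21e-05). AUR3, an Aurora kinase, had -1.18 ± 0.36, lost without csn4 light replicate 3 (-0.80, limma adjusted p = 0.0647). The call of AUR3 was lost too with 100 added before log2 (-0.98, limma adjusted p = 0.0217). SKP2A and Haspin, at 0.68 ± 0.22 and -0.88 ± 0.37, were not called. Of 7 tubulin genes, TUB1 was called higher and TUB5 (AT1G20010) lower. TUB5 read 1606, 817 and 1537 in WT dark, 2675, 2342 and 2457 in WT light, 536, 546 and 634 in csn4 dark and 335, 603 and 599 in csn4 light. Every csn4 array was below every WT array (interaction -1.13 ± 0.31), and the call was lost without WT dark replicate 2 (-0.83, limma adjusted p = 0.0365) or csn4 light replicate 1 (-0.88, limma adjusted p = 0.0381). TUB5 was also not called with the actin ratio as a covariate (-0.98, limma adjusted p = 0.0196) and without the pair of arrays of high actin ratio (-0.96, limma adjusted p = 0.015). TUB1 had 1.10 ± 0.32, lost without WT dark replicate 3 (0.99, limma adjusted p = 0.0425), csn4 dark replicate 1 (0.99, limma adjusted p = 0.0403) or csn4 light replicate 3 (0.86, limma adjusted p = 0.0495). TUB9 and TUA1 had 0.61 ± 0.23 and 0.44 ± 0.34, neither called.

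Of 15 tested genes of gibberellin, brassinosteroid and cytokinin, UGT76C2 (AT5G05860) alone was called higher, against 8.78% of all probe sets. This cytokinin glucosyltransferase gene gave 967, 711 and 982 in WT dark, 252, 170 and 187 in WT light, 204, 247 and 422 in csn4 dark and 166, 215 and 133 in csn4 light. WT dark was high, and the other 3 groups overlapped. The interaction was 1.30 ± 0.40, a call lost without csn4 dark replicate 1 (1.11, limma adjusted p = 0.0564). SLY1, GID1B and SPY of gibberellin signalling had 0.85 ± 0.30, 0.91 ± 0.38 and -0.64 ± 0.41, none called. In the ethylene list limma called 0 of 3, with -0.76 ± 0.30 for RTE1, -0.26 ± 0.29 for ETP2 and 0.18 ± 0.35 for EIN3, and 1 at an unadjusted p under 0.05. Without csn4 light replicate 2, 1 was called lower. In the iron and zinc list limma called 0 of 9, and 1 had an unadjusted p under 0.05. Without csn4 dark replicate 2, 1 was called higher. bHLH104, bHLH115, ZIP6 and PYE had 0.89 ± 0.22, 0.29 ± 0.30, 0.32 ± 0.39 and 0.20 ± 0.28.

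Of 19 tested genes of the COP9 signalosome, cullins and ubiquitin enzymes, 2 were called higher, 2 lower and 15 were not called. No direction is read for the list, with 8.78% called higher and 9.42% lower over all probe sets. CSN5B, the one signalosome subunit with a probe set naming it alone, gave 124, 118 and 177 in WT dark, 110, 123 and 119 in WT light, 206, 247 and 146 in csn4 dark and 266, 332 and 224 in csn4 light. The dark arrays of both genotypes overlapped, and its interaction of 0.55 ± 0.28 was not called (limma adjusted p = 0.164). UBC22 (AT5G05080), a ubiquitin-conjugating enzyme gene, gave 3267, 3349 and 3569 in WT dark, 1920, 1870 and 1759 in WT light, 1379, 1619 and 1306 in csn4 dark and 1650, 2077 and 1364 in csn4 light. It was highest in WT dark, and csn4 light and dark arrays overlapped (interaction 1.08 ± 0.22, limma adjusted p = 0.000482). That call was lost without csn4 light replicate 2 (0.93, limma adjusted p = 0.00164). The call of UBC22 was lost too with the actin ratio as a covariate (0.96, limma adjusted p = 0.000896) and without the pair of arrays of high actin ratio (0.94, limma adjusted p = 0.00231). UBC30 had 1.18 ± 0.24, and UBC20, at -0.94 ± 0.21, was not called. UBC18, at -1.05 ± 0.25, lost its call without any 1 of WT dark replicate 1, WT light replicate 3, csn4 dark replicate 2, csn4 dark replicate 3 or csn4 light replicate 3 (values from -0.99 to -0.97, limma adjusted p from 0.00675 to 0.0093). UBC18 was also not called with 100 added before log2 (-0.99, limma adjusted p = 0.00242) and with array weights (-0.98, limma adjusted p = 0.00133).

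The balance of organs can move transcript levels in whole seedlings, where fewer cells of a type and less RNA per cell cannot be told apart. Of 5 tested root markers, 1 was called higher in the interaction (8.78% over all probe sets). In csn4, 4 of the 5 were lower in darkness and 3 in light (11.2% and 9.62% over all probe sets). The sum of their signals was 24700 to 27300 in WT dark, 17500 to 18200 in WT light, 4700 to 7020 in csn4 dark and 4730 to 7200 in csn4 light, with no marker at 0. AT5G17820 gave 2871, 1971 and 2148 in WT dark, 895, 847 and 806 in WT light, 156, 308 and 302 in csn4 dark and 134, 318 and 657 in csn4 light. Every csn4 array was below every WT array, and light and dark overlapped in csn4 (interaction 1.68 ± 0.42, limma adjusted p = 0.00358). PYK10, EXPA18 and EXPA7 had 0.52 ± 0.25, 1.18 ± 0.61 and -0.80 ± 0.48, none called.

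Of 7 tested markers of the shoot apex and leaf, 2 were called lower in the interaction (9.42% over all probe sets). In darkness 3 of the 7 were higher in csn4 (17.4% over all probe sets). Their summed signal was 569 to 750 in WT dark, 1380 to 1500 in WT light, 1250 to 1570 in csn4 dark and 661 to 1410 in csn4 light, with no marker at 0. The WT light arrays were thus above the WT dark ones, and light and dark overlapped in csn4, as they did for the summed root signal. The part of organ balance in the other results was not tested. YAB5 (AT2G26580), of the leaf-polarity YABBY family, gave 54.9, 91.6 and 87.8 in WT dark, 430, 396 and 400 in WT light, 146, 188 and 231 in csn4 dark and 222, 228 and 145 in csn4 light. The csn4 arrays of both conditions overlapped between the WT groups (interaction -1.80 ± 0.36, limma adjusted p = 0.000383). YAB3 had -1.01 ± 0.41, not called.

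Of 3 tested stomatal genes, 2 were called lower (9.42% over all probe sets). STOMAGEN (AT4G12970), a peptide signal that raises stomatal density, read 466, 715 and 651 in WT dark, 1768, 1815 and 1937 in WT light, 1367, 1216 and 1783 in csn4 dark and 779, 1567 and 480 in csn4 light. In WT the light arrays were above the dark ones, while csn4 light and dark arrays overlapped and spanned both WT groups. The interaction was -2.27 ± 0.36 (limma adjusted p = 2.48e-05). FMA, of guard cell differentiation, had -1.16 ± 0.47, not called. SPCH, which starts the stomatal lineage and is also among the shoot markers, had -1.51 ± 0.54, not called without any 1 of WT dark replicate 2, WT dark replicate 3, WT light replicate 1, WT light replicate 2, WT light replicate 3, csn4 dark replicate 1, csn4 light replicate 1 or csn4 light replicate 3 (values from -1.54 to -1.23, limma adjusted p from 0.07 to 0.13). The call of SPCH was lost too after quantile normalization, with 100 added before log2, with no filter on low signals and in the fit of the 12 csn4 and WT arrays alone (values from -1.51 to -1.03, limma adjusted p from 0.0517 to 0.0709).

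Over all 34 lists, 534 genes were tested, of which 72 were called higher and 94 lower. The shares over all probe sets were 8.78% and 9.42%. The lists were chosen with earlier results of these data known, so an excess over those shares is not read as a result. There were 9 lists with calls in the lower direction alone, 7 in the higher direction alone, 16 in both and 2 with none. The lists with the lowest medians were the Calvin cycle, the nuclear photosystem genes and chlorophyll synthesis, and among lists of over 3 tested genes those with the highest were amino acid breakdown and reserves and autophagy.

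**Figure D4:**
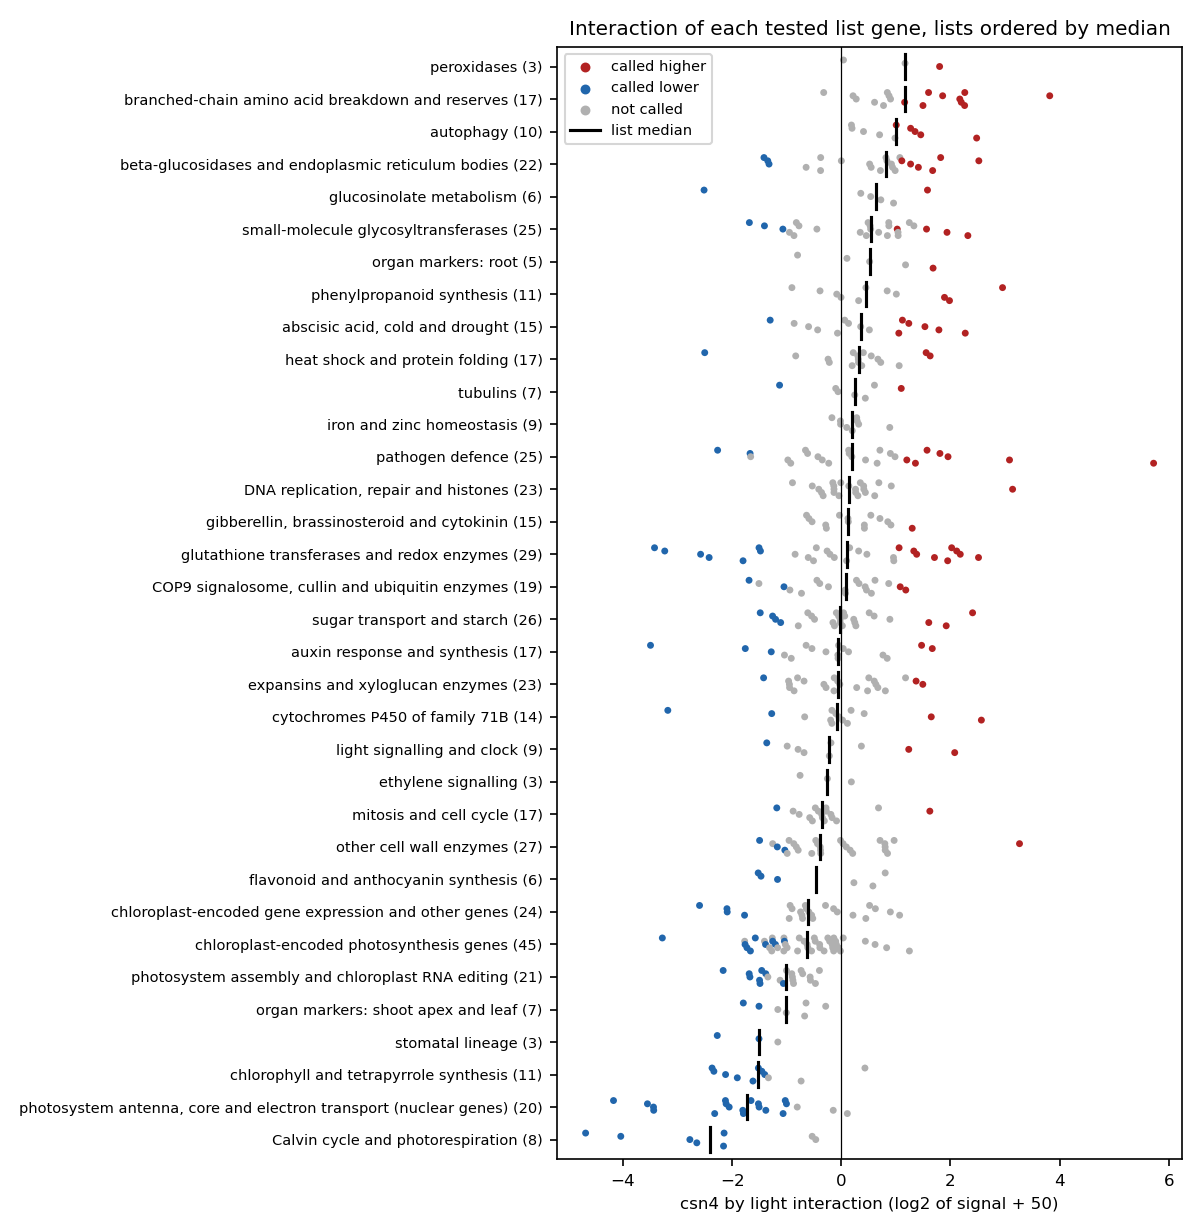
Interaction (log2 of signal plus 50) of each tested gene of the 34 lists, 1 point a gene, coloured by call, with a bar at the list median and the number tested in brackets. The Calvin cycle (median -2.40), nuclear photosystem (-1.72) and chlorophyll (-1.52) lists lie below 0, and amino acid breakdown (1.16) and autophagy (0.99) above it.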

How the data were processed

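Seedling RNA was hybridised to 24 ATH1 arrays of 8 groups, 3 arrays each. The deposited intensities are the authors' MAS5 signals per probe set, made with the MAS5 method per the submitters' processing notes, and its version is not given in the sources used here. Signals were rescaled so that the mean of an array, with 2% trimmed off each end, was 500, and log2 was taken after adding 50. Of 22810 probe sets, the 64 controls were left out, and the 18751 with a signal of at least 100 in 3 or more of the 24 arrays were tested with limma 3.58.1 in R 4.3.3 (1 mean per group, eBayes with an intensity trend, Benjamini-Hochberg adjustment). Calls required a p under 0.05 after adjustment and a difference of 1 or more on the log2 scale. The fit was tested on simulated data. The number of arrays limits the precision, and a fold is understated for low signals.

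Gene names came from the platform annotation, with symbols from the RefSeq gene table (assembly TAIR10.1). There were 13513 probe sets with 1 gene, 13436 of them in that table, 503 with several and 8730 unnamed here. A gene with several probe sets was read from the one of highest mean signal. Named genes were the 12 highest and 12 lowest called interactions and CSN5B. From each of 34 lists, up to 4 genes of lowest adjusted p in the interaction were added, called or not. The members and lists were chosen with earlier results of these data known. Alternatives covered scaling, offset, filter, design, actin ratio and single arrays left out. The removal of the pair of arrays of high actin ratio and the array weights were chosen after seeing the data.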

Additional observations from a re-analysis of the deposited data

Results flagged for a closer look

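A called interaction is a tested difference between the light responses of csn4 and WT, by limma over the 24 arrays. The 117 called genes among those named are given here by their log2 value. There were 1647 probe sets called higher and 1766 called lower.

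Among the genes with the highest values, AT5G39520 was at 6.47, CHI at 5.72, AT4G37220 at 5.51, AT4G07820 at 4.60, AT3G18250 at 4.55, AT4G33150 at 4.51, AT2G41190 at 4.11, AT2G16005 at 3.97, AT4G11190 at 3.84, ICL at 3.82, AT3G22240 at 3.78 and AT1G30760 at 3.70. Among the lowest, AT3G16670 was at -6.05, AT1G23130 at -4.71, RCA at -4.68, AT1G66100 at -4.61, AT2G33850 at -4.60, AT3G48420 at -4.46, AT4G21870 at -4.44, AT2G29290 at -4.22, CaS at -4.17, SBPASE at -4.04, AT1G52510 at -4.00 and AT3G28220 at -3.95.

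Among nuclear photosynthesis genes called lower were NdhN at -3.44, NdhL at -3.55, TROL at -3.44 and HCF101 at -2.16. LPA2 was at -1.69 and TRXF2 at -2.77. HPR, of photorespiration, was at -2.65, and the chloroplast division genes FTSZ2-2 and FTSZ2-1 were at -1.50 and -1.49. In chlorophyll synthesis HEME2 was at -2.37, HEME1 at -2.12, GSA1 at -1.91 and HEMB1 at -1.62. Of the chloroplast genes, 13 of the 69 tested were called lower (9.42% over all probe sets). They include psaA at -3.28, ndhA at -1.73, psbH at -1.67 and petB at -1.21. Also called lower were rps18 at -2.60, rpl36 at -2.10, rpl33 at -2.09 and rps2 at -1.77.

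Of the reserve and autophagy genes, 9 of 17 and 5 of 10 were called higher (8.78% over all probe sets). They include DELTA-OAT at 2.26, MCCB at 2.2 and MCCA at 2.17. Of the autophagy genes, ATG8B was at 2.48, ATG8H at 1.46, APG8A at 1.35 and APG8H at 1.27. Of stress and defence genes, LEA18 was at 2.27, LTI30 at 1.79, COR47 at 1.53, HVA22C at -1.30, OSM34 at 3.08, UGT76B1 at 1.95, SAG101 at 1.81, Hsp70-2 at 1.55, BZIP60 at 1.63 and Fes1B at -2.50. Of redox enzymes, GSTU22 was at 2.51, GSTU18 at -3.23, TAPX at -2.58, AOR at -2.42 and PRX52 at 1.80.

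In light and hormone lists GI was at 2.08, SPT at 1.24, CIL at -1.37, GH3.3 at -3.50, IAA29 at -1.76, WES1 at -1.28, LBD16 at 1.47 and UGT76C2 at 1.30. In secondary metabolism UGT78D2 was at -1.47, CHIL at -1.52, UGT78D1 at -1.17, CCOAMT at 2.95, ALDH2C4 at 1.98, CCR2 at 1.89, UGT76E11 at -1.68, UGT73D1 at 2.32, UGT85A2 at 1.56, UGT88A1 at -1.07, BCAT4 at -2.51, GTR2 at 1.58, CYP71B6 at 2.57, CYP71B22 at -3.18, CYP71B23 at 1.65 and CYP71B35 at -1.27. Among wall, sugar and glucosidase genes XTH32 was at -1.42, XTH18 at 1.49, EXLA1 at 1.37, ATPMEPCRD at 3.26, COB at -1.50, SKU5 at -1.03, cwINV6 at 2.40, AMY1 at 1.92, SWEET1 at -1.26, PWD (AT5G26570) at -1.20, BGLU46 at 2.52, BGLU15 at 1.27, BGLU25 at 1.82 and JAL34 at 1.41.

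For growth and cell division SIM was at 1.62, AUR3 at -1.18, HIS1-3 at 3.14, TUB1 at 1.10, TUB5 at -1.13, STOMAGEN at -2.27, SPCH at -1.51, YAB5 at -1.80 and AT5G17820 at 1.68. Ubiquitin-conjugating enzymes had UBC22 at 1.08, UBC30 at 1.18 and UBC18 at -1.05.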

How the results depend on the processing

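Over 26 alternatives the interaction had 1456 to 2074 probe sets called higher and 1562 to 2260 lower, and list members called numbered 64 to 88 higher and 80 to 119 lower. Of 151 named genes, 117 were called. Of these, 99 kept the call in every alternative in which they were tested, and 18 lost it in at least 1. Among the 99, AT1G30760 was tested in 22 of the 26 alternatives, AT2G33850 in 23 and UGT73D1 in 25. Of 3913 values of named genes under alternatives, 97 lost the call, 60 gained one and 8 changed sign, none of them called. SPY was at 0.16 without the pair of arrays of high actin ratio, EIN3 at -0.042 without csn4 light replicate 1 and bHLH115 at -0.0321 without csn4 light replicate 3. PRXR1 was at -0.06 without WT dark replicate 1, -0.08 without csn4 dark replicate 1, -0.07 without csn4 dark replicate 3, -0.14 without csn4 light replicate 3 and -8e-04 with array weights. Their highest values with 1 array left out were 0.46 for EIN3, 0.49 for bHLH115 and 0.26 for PRXR1. The csn4 light response gave 654 calls, 567 to 1106 with 1 array left out (the highest without csn4 light replicate 2) and 1156 without the pair of high actin ratio. Against csn3 the 1 call became 3 after quantile normalization, 2 without that pair and 0 to 2 with 1 array left out. Against the csn5-labelled line the 7 calls became 0 after quantile normalization and 0 to 40 with 1 array left out. In each case the cause was not tested. In the fit of the 12 arrays alone, 3184 probe sets were called, and 3157 with a replicate block. Under the block 6 of the 117 called named genes were not called, namely SPT, rps2, UGT78D1, PRX52, SPCH and CYP71B35. Deviations from the group mean, for arrays of the same replicate number, correlated over 0.1 in 2 of 18 pairs (range -0.25 to 0.38). Both pairs were of WT dark and csn4 light, at 0.38 in replicate 2 and 0.23 in replicate 3. Whether arrays of 1 number were processed together was not tested. Leaving out arrays with an actin ratio over 3 was not run, since no csn4 array would be left. Of 68 list counts by direction, 25 moved by over 1.5 times with 1 array left out, all from 9 members or fewer.

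Low signals limit the values of genes near 100. The array with an actin ratio of 48.9 lies in csn4 light, the group of the largest spread.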

Other observations

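A few transcripts answered light in csn4 and WT in opposite directions, each called by limma. The following genes were singled out after their values were seen. Among probe sets naming 1 gene, 20 were lower in light in WT and higher in csn4, and 6 were the reverse. With the other probe sets included, the first pattern held 2.29% of those lower in WT, against 2.13% higher in csn4 over all. The reverse held 0.506% of those higher in WT, against 1.36% lower in csn4 over all. No excess is read from these counts. YLS5 differed by -1.51 in WT and 1.44 in csn4. AT1G26420 differed by -1.09 and 1.70, and AT4G39670 by -1.24 and 1.49. AT4G23670 and AT4G23680, neighbours in locus number, differed by -1.23 and 1.26 and by -1.87 and 1.27. In the reverse direction AT2G04790 differed by 1.33 in WT and -1.43 in csn4, and AT4G03150 by 1.76 and -1.17. In csn3 arrays, which share no array with these values, the same genes in this order were at 0.66, 0.80, 0.71, 0.99, 0.87, -0.95 and 0.18, none called. In csn5-labelled arrays YLS5 was at 1.13 and AT4G39670 at 1.34, both called, while AT1G26420 at 0.79, AT4G23670 at 0.28, AT4G23680 at 0.70, AT2G04790 at -0.68 and AT4G03150 at -0.66 were not.

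Other called interactions rested on a csn4 light response without a called one in WT. AT3G28540 differed by 2.67 in csn4 and -0.37 in WT, AT1G57630 by 1.80 and -0.98, and AT3G13950 by 1.68 and -0.85. In WT, AT1G57630 missed the call by size alone (limma adjusted p = 0.0417), with signals from 3.6 to 105.3. AT3G13950 gave 150.6, 145.6 and 136.1 in WT dark and 66.2, 40.1 and 68.4 in WT light, without overlap (limma adjusted p = 0.0708). The estimates of both genes thus ran in opposite directions in WT and csn4. PLIM2a, of a family of actin-binding LIM proteins, differed by -1.22 in csn4 and 0.21 in WT. It gave 24.8, 9.3 and 3.4 in WT dark and 15.6, 42.4 and 10.9 in WT light. In csn4 it gave 143.8, 133.8 and 229.3 in darkness and 76.4, 64.4 and 4.6 in light. All its WT signals lay below the signal limit of the filter, so a fall in WT light could not be seen. The WT signals of AT3G28540, from 2.7 to 50.6, lay below that limit too. The WT difference of PLIM2a and AT3G28540 is therefore not read. A further set kept the direction of WT with another size. CML38, a calmodulin-like gene, was higher in light by 1.21 in WT and by 3.38 in csn4, an interaction of 2.18, and by 2.2 in csn3 and 3.54 in csn5-labelled arrays. SIS was lower in light by -4.31 in WT and -1.90 in csn4, an interaction of 2.41, and differed by -0.80 in csn3, not called, and by -1.03 in csn5-labelled arrays, called.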
